A study of Mus musculus with 6 samples.

Results

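The hexokinases and phosphofructokinases set the pace of the first steps of glycolysis, and 10 mouse genes encoding their isozymes were listed: Hk1, Hk2 and Hk3, Pfkl, Pfkm and Pfkp, and Pfkfb1, Pfkfb2, Pfkfb3 and Pfkfb4. They were listed by name as families of enzymes, with earlier results of these data known. A gene was taken as measured where a probe set, the group of short probes that reports on 1 transcript, was annotated to that gene alone. Of the 10 genes, 9 were measured, among 18193 genes in all, by 19 probe sets, and Pfkfb1 was not analysed here. Where a gene had several probe sets, the one with the highest mean over the 6 arrays stood for the gene. The comparison was between cystic kidney epithelium of 3 samples labelled Fh1 knockout and kidney epithelium of 3 wild-type littermate samples, each macro-dissected and hybridised to 1 Affymetrix array. Fh1 is the gene of fumarate hydratase, which converts fumarate to malate in the mitochondrion. The control littermates were sex-matched and free of disease. The labels give no age, strain, allele or cell type of the deletion. They do not state that each sample is a separate animal either, so the p-values cover only the scatter among the 6 samples, which may be technical.

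Hexokinases phosphorylate glucose as it enters the cell, which traps it there as glucose 6-phosphate. Phosphofructokinase then adds a second phosphate to fructose 6-phosphate, the step that commits the sugar to glycolysis, and works as a tetramer that can mix the L (liver), M (muscle) and P (platelet) subunits. The PFKFB enzymes carry both a kinase and a phosphatase and so make and remove fructose 2,6-bisphosphate, the strongest activator of phosphofructokinase. In the healthy kidney the proximal tubule mainly makes glucose rather than burning it, whereas distal segments use glucose as fuel.

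The DNA just before the start sites of the 5 genes called in the comparison is shown because several glycolytic genes are textbook targets of the hypoxia-inducible factors, which bind the core letters ACGTG or GCGTG. The 250 bases before the 5′-most listed start of each gene are given 5′ to 3′ along the gene, from RefSeq on GRCm38.p6, with matches to either core on either strand in capitals:
Hk2 (chr6:82774455-82774704, minus strand): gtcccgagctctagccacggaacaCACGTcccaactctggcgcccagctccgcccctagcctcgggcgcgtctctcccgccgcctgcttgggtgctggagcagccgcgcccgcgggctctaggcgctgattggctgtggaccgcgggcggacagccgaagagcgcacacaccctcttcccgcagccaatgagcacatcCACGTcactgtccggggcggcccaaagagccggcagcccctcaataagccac
Pfkl (chr10:78009808-78010057, minus strand): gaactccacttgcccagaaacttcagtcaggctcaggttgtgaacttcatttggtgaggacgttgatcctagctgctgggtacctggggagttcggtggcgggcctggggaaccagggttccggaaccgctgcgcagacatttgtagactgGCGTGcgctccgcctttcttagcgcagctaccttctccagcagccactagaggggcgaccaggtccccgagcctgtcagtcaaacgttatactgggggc
Pfkp (chr13:6648772-6649021, minus strand): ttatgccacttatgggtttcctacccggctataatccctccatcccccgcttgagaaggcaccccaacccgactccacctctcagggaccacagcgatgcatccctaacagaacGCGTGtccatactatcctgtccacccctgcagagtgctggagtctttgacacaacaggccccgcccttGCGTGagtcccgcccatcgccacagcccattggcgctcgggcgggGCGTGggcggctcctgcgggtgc
Pfkm (chr15:98092339-98092588, plus strand): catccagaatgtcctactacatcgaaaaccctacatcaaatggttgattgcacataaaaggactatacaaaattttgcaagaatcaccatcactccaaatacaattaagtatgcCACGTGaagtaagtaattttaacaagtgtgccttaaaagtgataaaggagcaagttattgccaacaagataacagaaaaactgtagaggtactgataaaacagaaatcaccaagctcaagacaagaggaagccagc
Pfkfb3 (chr2:11553930-11554179, minus strand): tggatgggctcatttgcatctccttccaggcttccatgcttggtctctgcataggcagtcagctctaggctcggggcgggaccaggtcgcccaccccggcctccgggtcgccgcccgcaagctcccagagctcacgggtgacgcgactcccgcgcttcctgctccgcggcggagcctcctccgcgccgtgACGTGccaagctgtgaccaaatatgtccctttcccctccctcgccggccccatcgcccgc
The Hk2 stretch held 2 matches to ACGTG and none to GCGTG, Pfkl 1 to GCGTG, Pfkp 3 to GCGTG and Pfkfb3 1 to ACGTG. Pfkm, the gene that was lower, held 2 matches to ACGTG that overlap on opposite strands. All 10 listed genes had an entry, with 20 start-site windows in all, some overlapping, and 15 of these windows held a match to either core. Over the 32851 windows of the table, 38.6% held a match to either core, 16.6% one to ACGTG and 28.2% one to GCGTG. A match is a description of letters and not evidence of binding, and such matches stood before the gene that was lower as well as before those that were higher.

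On the arrays, 4 of the 9 measured isozymes were higher in the Fh1 knockout (Hk2, Pfkl, Pfkp and Pfkfb3), 1 was lower (Pfkm) and 4 were not called (Hk1, Hk3, Pfkfb2 and Pfkfb4). A gene was called where limma's adjusted p, over all 18193 genes, was under 0.05. By this rule 49.2% of all genes were called, 21.6% higher and 27.7% lower, so being called is common in these samples and the count of isozymes called is near that background. The isozymes had a median log2 change of 0.32, that of the uncalled Hk1, against -0.11 over all genes. By the size of the change, Pfkp ranked 127, Pfkl 810, Pfkfb3 972 and Pfkm 3262 among the 18193 genes, whereas Hk1 ranked 8416, Pfkfb2 11692, Pfkfb4 11697 and Hk3 13535. Hk2 ranked 12, a place that is only approximate because its wild-type values were dim. Values of the 2 groups did not overlap for 8 of the 9 isozymes, where this held for 62.9% of all genes. RMA values of different probe sets cannot be set against each other, so no isozyme is described as more abundant than another.

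**Figure D1:**
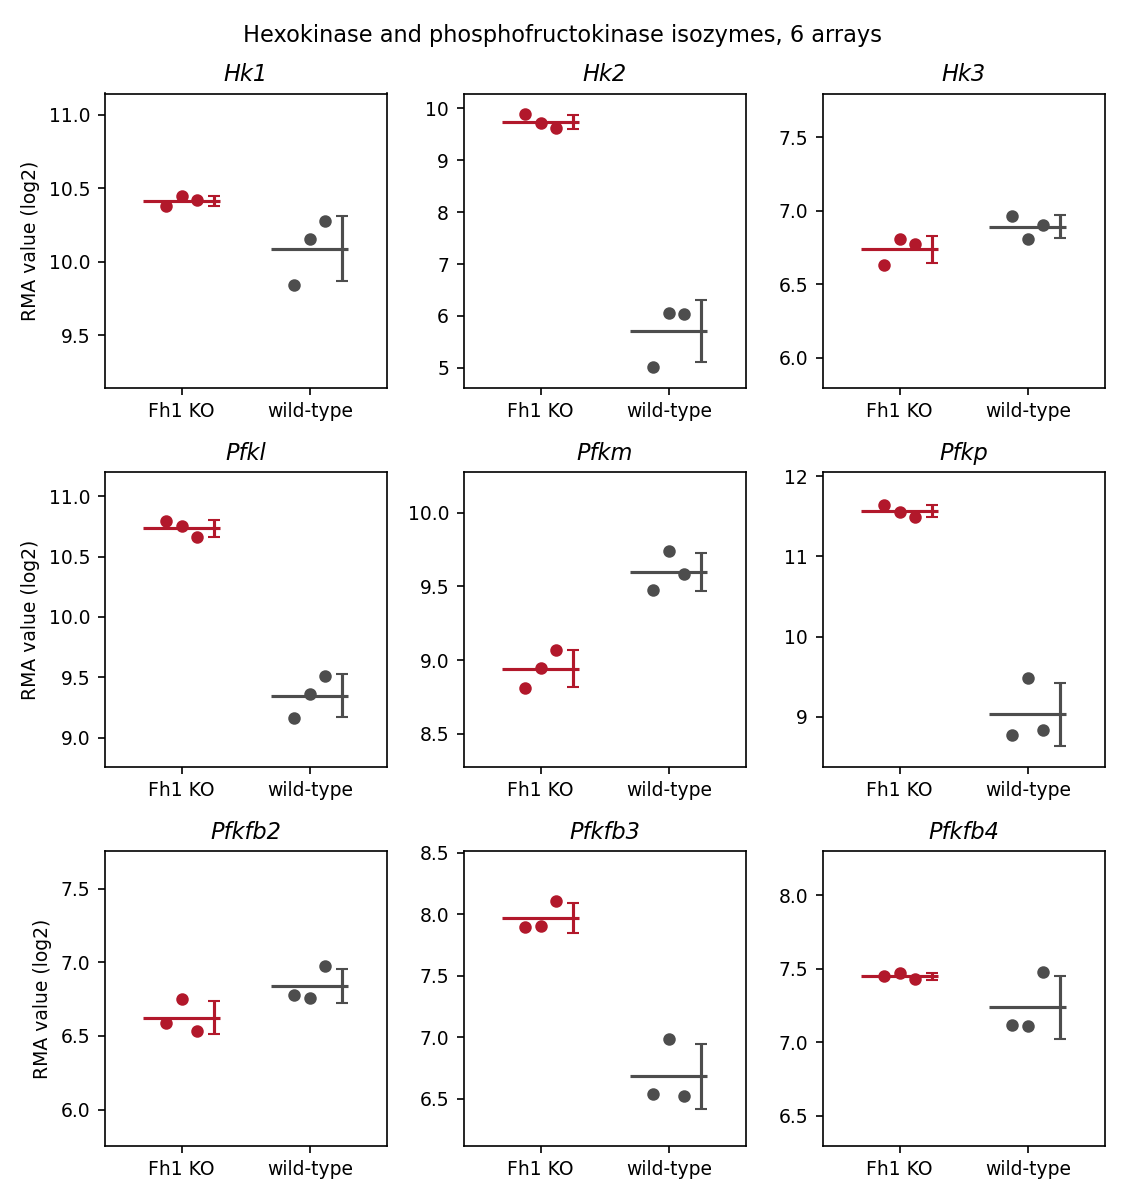
RMA value (log2 scale, vertical axis, whose span differs between panels) of each measured isozyme in the 3 Fh1 knockout arrays (red, left) and the 3 wild-type arrays (grey, right). Points are arrays, long bars are means and error bars are SD. Hk2, Pfkl, Pfkp and Pfkfb3 stand apart upwards in the knockout and Pfkm downwards, while 1 wild-type value of Pfkfb4 lies above all knockout values.

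Among the hexokinases, Hk2 alone was called. Hk2 encodes the insulin-responsive isozyme of muscle and fat, which binds the outer mitochondrial membrane and is often abundant in tumours. Its 1 probe set read 9.88, 9.70 and 9.62 in Fh1 knockout samples 1 to 3, against 5.02, 6.07 and 6.03 in wild-type samples 1 to 3. The lowest knockout value was thus far above the highest wild-type value. Hk2 was 16.3-fold higher in the knockout (log2 change 4.03, SE 0.26, limma adjusted p = 4.35e-05). All 3 wild-type values lay below the median of their own array (6.19 to 6.23). RMA gives no detection call, so how much of these values is signal is not known, and the fold is only approximate. Wild-type 1 was the lowest of these values, and without it the log2 change was 3.68.

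Hk1, the isozyme found in most tissues and the main one of brain and red cells, read 10.38, 10.45 and 10.42 in knockout samples, against 9.84, 10.15 and 10.27 in wild-type samples. The groups did not overlap, but wild-type 3 came close to the knockout values. The log2 change was 0.32 (SE 0.12, limma adjusted p = 0.0529), just outside the threshold, and without wild-type 3 it was 0.42 with limma adjusted p = 0.0227. The second Hk1 probe set had nearly the same log2 change, 0.32 (SE 0.12, limma adjusted p = 0.0596 over all 45037 probe sets). A further probe set lists Hk1 together with a ribosomal protein gene and its relatives, 6 genes in all, and was not used for Hk1. Its log2 change of 0.86 (limma adjusted p = 0.00168 over all probe sets) belongs to no single gene.

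Hk3, the isozyme of white blood cells of the myeloid line, read 6.63, 6.81 and 6.77 in knockout samples, against 6.96, 6.81 and 6.91 in wild-type samples. The values of knockout 2 and wild-type 2 were almost equal. The log2 change was -0.16 with a 95% interval of -0.36 to 0.05 (limma adjusted p = 0.168), and the other probe set gave -0.12 (limma adjusted p = 0.396 over all probe sets). Beside this, 8 of 9 macrophage markers were higher in the knockout and none lower, and their summed level ran from 12.99 to 13.52 in knockout arrays, against 11.81 to 12.24 in wild-type arrays on the log2 scale. Of 8 measured neutrophil and granulocyte markers 4 were lower and none higher, where 21.6% of all genes were higher and 27.7% lower. Their summed levels were 8.02 to 8.19 in the knockout, against 8.34 to 8.63 in wild-type. These markers were dim, with mean levels of 4.94 to 5.10 in knockout arrays and 5.26 to 5.52 in wild-type arrays, below the array medians. The lower quartile of all probe sets was also lower in the knockout, at 4.61 to 4.65, against 4.72 to 4.77 in wild-type. How far these markers report on cells at this level was not tested. In such bulk samples fewer cells of a type and less RNA per cell cannot be told apart.

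The phosphofructokinase family split by direction. Pfkp, the platelet-type subunit, read 11.65, 11.56 and 11.49 in knockout samples, against 8.78, 9.49 and 8.83 in wild-type samples. Every knockout value was above 11 and every wild-type value below 10. Pfkp was 5.79-fold higher (log2 change 2.53, SE 0.18, limma adjusted p = 5.96e-05). Its other probe sets were called the same way with somewhat smaller log2 changes of 1.88 and 1.90. Wild-type 2 was the highest wild-type sample on the brightest probe set, and without it the log2 change was 2.76.

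Pfkl, the liver-type subunit, read 10.80, 10.75 and 10.66 in knockout samples, against 9.16, 9.36 and 9.51 in wild-type samples. The groups were more than 1 log2 unit apart at their nearest. Pfkl was 2.63-fold higher (log2 change 1.39, SE 0.11, limma adjusted p = 7.97e-05). A second probe set gave a log2 change of 1.20 and was called. The third, a dim one with values of 5.30 to 5.40 in the knockout and 5.09 to 5.25 in wild-type, gave 0.19 and was not called (limma adjusted p = 0.102 over all probe sets). With the mean of all its probe sets the log2 change of Pfkl was 0.93, still called (limma adjusted p = 0.000166).

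Pfkm, the muscle-type subunit, was the 1 isozyme that fell. It read 8.81, 8.95 and 9.07 in knockout samples, against 9.48, 9.74 and 9.58 in wild-type samples, and the highest knockout value stayed below the lowest wild-type value. The level was 1.58-fold lower in the knockout (log2 change -0.66, SE 0.10, limma adjusted p = 0.00194), and the gene had no second probe set to compare. Lower values were common among nephron genes in the same samples, where 27.7% of all genes were lower. Of 12 proximal tubule markers 11 were lower and none higher, with summed levels of 15.30 to 15.44 in the knockout, against 16.65 to 16.84 in wild-type. Of 8 thick limb and distal tubule markers 7 were lower, with summed levels of 14.59 to 15.00 in the knockout, against 15.83 to 16.04 in wild-type. Skeletal muscle markers were dim in both groups, with a summed level over 8 genes of 8.06 to 8.13 in the knockout, against 8.29 to 8.45 in wild-type, and 4 of the 8 were lower. The part of any of these cell types in the change of Pfkm was not tested.

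Among the PFKFB genes, Pfkfb3 alone was called. Pfkfb3 encodes the inducible isozyme, whose kinase activity far exceeds its phosphatase activity. Its brightest probe set read 7.90, 7.91 and 8.11 in knockout samples, against 6.54, 6.98 and 6.52 in wild-type samples, with no overlap. Pfkfb3 was 2.44-fold higher by this probe set (log2 change 1.29, SE 0.14, limma adjusted p = 0.00033). The other Pfkfb3 probe set read 6.42, 6.50 and 6.61 in knockout samples, against 6.49, 6.41 and 6.56 in wild-type samples, and the groups overlapped fully. Its log2 change was 0.02 with a 95% interval of -0.18 to 0.23 (limma adjusted p = 0.837 over all probe sets). The within-array gap between the 2 probe sets was 1.46 in knockout arrays and 0.19 in wild-type arrays, a difference of 1.26 (exact permutation p = 0.1, the smallest that 3 against 3 samples can give). Where on the transcripts these probes lie is not known here. The mean of both gave a log2 change of 0.66, against 1.29 for the brightest probe set alone, and was still called (limma adjusted p = 0.000892).

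Pfkfb2, the heart-type isozyme, which is also made in kidney, read 6.59, 6.75 and 6.54 in knockout samples, against 6.78, 6.76 and 6.97 in wild-type samples. Knockout 2 lay just under the wild-type values. The log2 change was -0.21 (SE 0.10, limma adjusted p = 0.105), and its other 3 probe sets gave -0.12 to -0.39, none called. All 4 probe sets pointed down, and their mean gave -0.23, which was called (limma adjusted p = 0.0349). The other 3 were dim, with means of 4.09, 4.10 and 5.81 in the knockout and 4.27, 4.48 and 5.93 in wild-type. These lie below the array medians, and the lower quartile of all probe sets was also lower in the knockout (4.61 to 4.65, against 4.72 to 4.77). Centring each array on the median of its tested genes gave -0.29, also called (limma adjusted p = 0.0447). That setting lowers the change of every gene by the same amount, and 6866 genes were lower with it, against 5031 in the main fit. Pfkfb4, known from testis and as a gene induced by low oxygen, read 7.45, 7.47 and 7.43 in knockout samples, against 7.12, 7.11 and 7.48 in wild-type samples. Wild-type 3 lay above every knockout value, so the groups overlapped. The log2 change was 0.21 (SE 0.11, limma adjusted p = 0.15), and without wild-type 3 it was 0.34 with limma adjusted p = 0.0104.

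**Figure D2:**
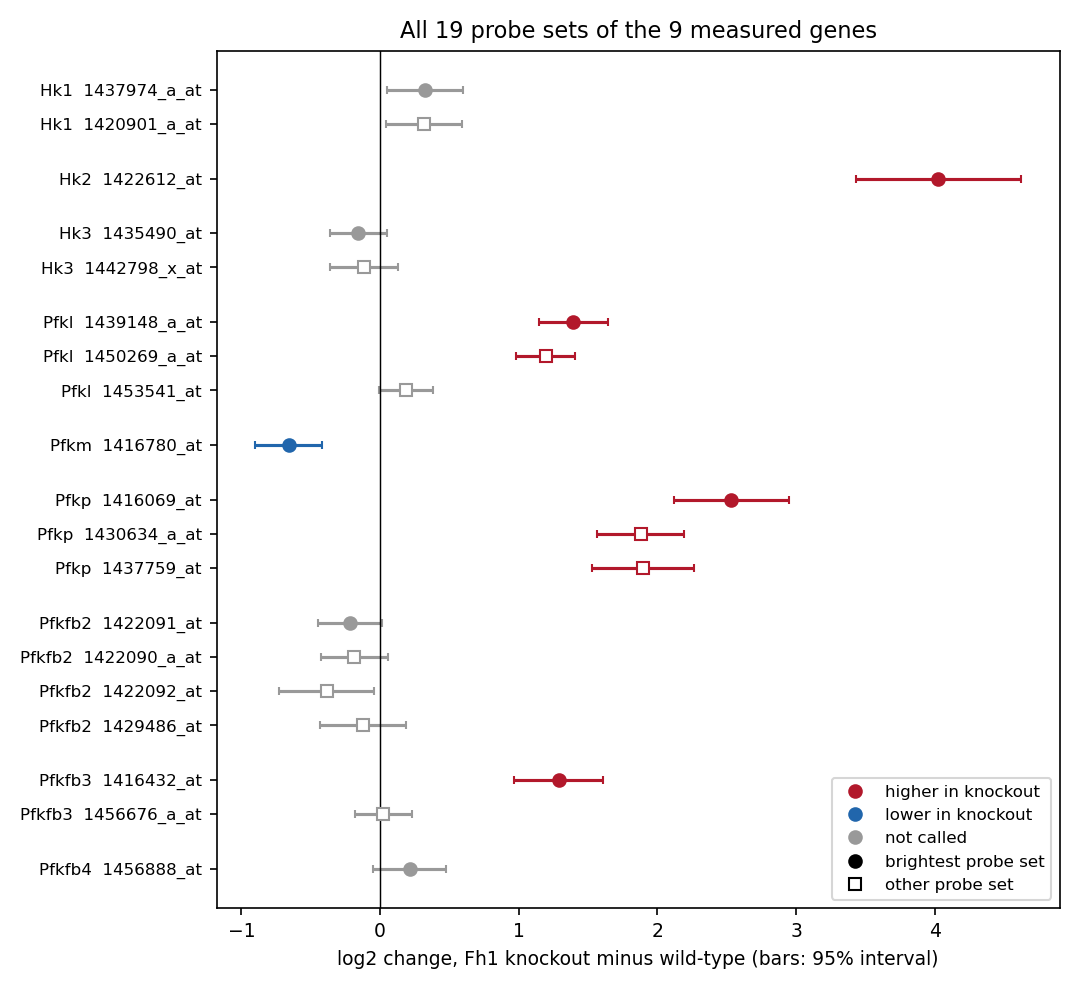
Log2 change (Fh1 knockout minus wild-type, horizontal axis) of all 19 probe sets of the 9 measured genes, with 95% intervals from limma fitted over all 45037 probe sets. Filled circles are the brightest probe set of each gene and open squares the others. Of the 19, 7 were called higher, 1 lower and 11 not called, and the probe sets of Pfkl and of Pfkfb3 disagree among themselves.

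Over the 19 probe sets, 7 were called higher and 1 lower, where 20.6% and 23.4% of all probe sets were. Beyond the brightest probe sets, only a second one of Pfkl and the other ones of Pfkp were called, in the direction of the brightest. None of the other probe sets of Hk1, Hk3, Pfkfb2 or Pfkfb3 was called in either direction. The 3 probe sets of Pfkp were all called. Hk2, Pfkm and Pfkfb4 rested on 1 probe set each.

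Isozymes of a family were then compared within each array, by subtracting the log2 value of one from that of the other, which asks whether the 2 changed unequally. With 3 genes in each family there were 9 pairs, each written with the isozyme of the larger log2 change first, so the sign of each difference follows from that order. Hk2 minus Hk1 was -0.50, -0.74 and -0.80 in knockout samples, against -4.82, -4.09 and -4.24 in wild-type samples, a difference of 3.70 between the group means. The same difference for Hk2 minus Hk3 was 4.18, and 3.81 without wild-type 1. The size of both is only approximate, since the wild-type values of Hk2 lay below the array medians. Pfkp minus Pfkm was 2.84, 2.61 and 2.43 in knockout samples, against -0.70, -0.25 and -0.75 in wild-type samples, and Pfkp gained 9.14-fold on Pfkm. Pfkl minus Pfkm was 1.99, 1.81 and 1.59 in knockout samples, against -0.32, -0.38 and -0.07 in wild-type samples, and Pfkl gained 4.15-fold on Pfkm.

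By their brightest probe sets, the 2 phosphofructokinase subunits that rose had unequal log2 changes, with a difference of 1.14. Pfkp minus Pfkl was 0.85, 0.81 and 0.83 in knockout samples, against -0.38, 0.12 and -0.68 in wild-type samples. The knockout samples were close to each other (SD 0.021) and the wild-type samples were spread (SD 0.406). Among the PFKFB genes, Pfkfb3 gained 2.83-fold on Pfkfb2 and 2.11-fold on Pfkfb4, which are log2 differences of 1.50 and 1.07. With the mean of all probe sets these differences were 0.88 from Pfkfb2 and 0.44 from Pfkfb4. The smaller differences were 0.48 for Hk1 minus Hk3 and 0.43 for Pfkfb4 minus Pfkfb2. The brightest probe set also gained on others of its own gene, by 1.26 for Pfkfb3 and by 0.65 and 0.64 for Pfkp. For Pfkl these gains were 1.20, over a dim probe set, and 0.20. Within Hk1, Hk3 and Pfkfb2 such gaps ran from -0.09 to 0.17. How far pair differences of these sizes reflect the genes rather than their probes was not tested. All 9 pairs had groups that did not overlap, where this held for 62.9% of single genes, and no such share was computed over pairs. Each gave an exact two-sided permutation p of 0.1, the smallest possible with 3 against 3 samples, and 0.1 after Benjamini-Hochberg adjustment over the 9 pairs, so this test could not pass the threshold.

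**Figure D3:**
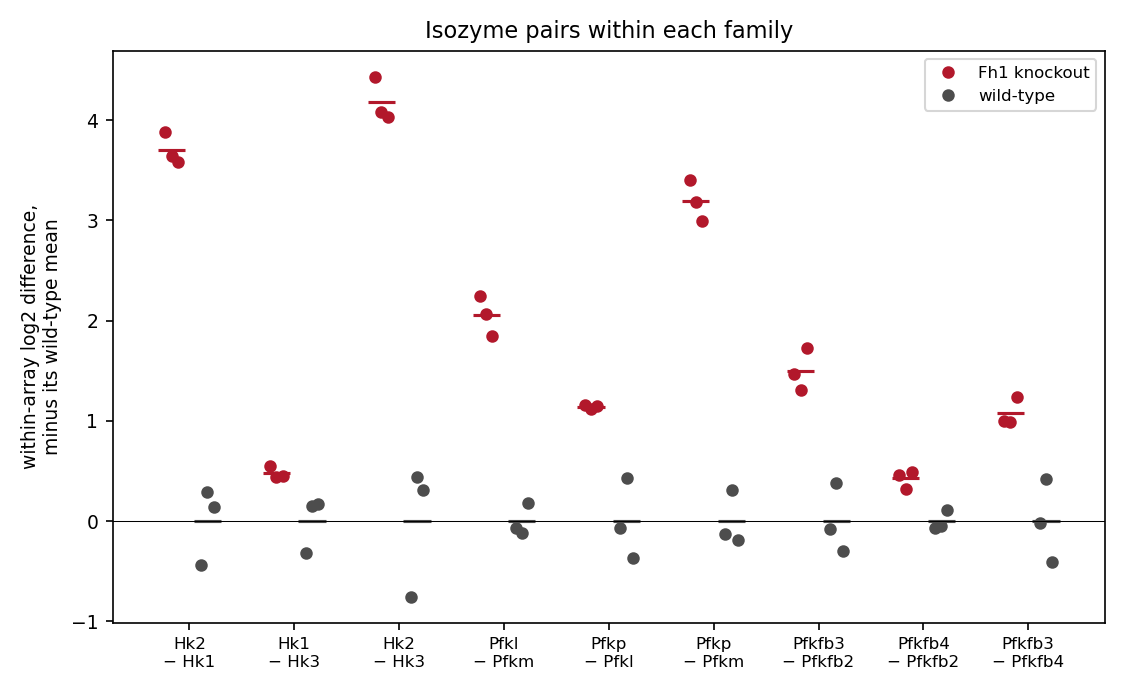
Within-array log2 difference between 2 isozymes of a family (vertical axis, shifted so that the wild-type mean of each pair is 0) in the 3 Fh1 knockout arrays (red, left) and the 3 wild-type arrays (grey, right) for the 9 pairs. Points are arrays and bars are means; the distances run from 0.43 for Pfkfb4 minus Pfkfb2 to 4.18 for Hk2 minus Hk3.

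The genes with the profile nearest to the leading isozyme of each family were found from the root mean square distance over the 6 arrays, each profile minus its own mean. For Hk2 they were Serpina10 (distance 0.32 on the log2 scale), Aldh1l2 (0.33) and Gbp2b (0.41). For Pfkp they were Hs3st1, Psd3 and Asns, at distances of 0.077, 0.097 and 0.113. For Pfkfb3 they were Colgalt1, Tnfsf9 and Pcdhb20, at 0.072, 0.076 and 0.078. With 2 groups of 3 arrays, likeness of this kind mostly reflects an equal difference between the groups.

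Other genes that handle glucose did not move as one. Of the other hexokinase genes, Hkdc1, a further hexokinase-like gene, had a log2 change of -0.10 (limma adjusted p = 0.499), and Gckr, the inhibitor of glucokinase, was lower (-0.35, limma adjusted p = 0.0187) at a dim level of 4.42 to 4.55 in the knockout, against 4.72 to 4.99 in wild-type. That call ended without knockout 1 and without knockout 3. Of 10 measured genes of later glycolysis, 7 were higher and 1 lower, with a median log2 change of 0.42. Over all genes 21.6% were higher and 27.7% lower. Eno2, the neuronal enolase, was 4.81-fold, Pkm, pyruvate kinase of muscle and most tissues, 2.20-fold and the aldolase Aldoa 1.94-fold higher. Ldhb, the lactate dehydrogenase subunit of heart, was lower (log2 change -0.23, limma adjusted p = 0.0419), a call that ended when any of 5 of the 6 arrays was left out.

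The phosphatases that run these steps backwards went down or were not called. Of the 6 genes, G6pc, which frees glucose from glucose 6-phosphate, was 4.97-fold lower, Slc37a4, which carries glucose 6-phosphate to it, 2.77-fold lower and Fbp1, the fructose bisphosphatase of liver and kidney, 2.41-fold lower (limma adjusted p of 5.81e-05 to 0.0001). Fbp1 reverses the phosphofructokinase step. Its values were 12.94, 12.84 and 13.08 in knockout samples, against 14.27, 14.22 and 14.17 in wild-type samples, with no overlap. G6pc3, the widely expressed phosphatase, had a log2 change of -0.12, the muscle-type Fbp2 -0.41 and Tigar, a p53 target that removes fructose 2,6-bisphosphate, -0.15, and none was called (limma adjusted p of 0.387, 0.109 and 0.2). In kidney G6pc and Fbp1 are genes of the proximal tubule, whose markers were lower in the same samples, with the summed levels given beside Pfkm. The part of these cells in the changes of G6pc, Slc37a4 and Fbp1 was not tested.

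Of 9 glucose and fructose carriers, 2 were higher and 6 lower, with a median log2 change of -0.68. Over all genes 21.6% were higher and 27.7% lower. Slc2a1 (GLUT1), the carrier of most cells, was 2.97-fold higher and Slc5a1 (SGLT1), the sodium-coupled carrier of the late proximal tubule, 1.49-fold higher. Slc5a2 (SGLT2), the carrier of the early proximal tubule, was 5.29-fold lower, Slc2a4 (GLUT4) 2.37-fold lower and the fructose carrier Slc2a5 2.30-fold lower. Slc5a2 was also counted among the proximal tubule markers. Slc2a4 is known with Hk2 as part of glucose use in muscle and fat, and here it was lower where Hk2 was higher. Its log2 change was -1.24 (SE 0.18, limma adjusted p = 0.00118).

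Of 15 measured regulators and partners of the isozymes, 5 were higher and 3 lower, with a median log2 change of 0.12, where 21.6% of all genes were higher and 27.7% lower. The higher ones numbered 4 to 7 when single arrays were left out and 3 when the probe sets of each gene were averaged. Myc, a transcription factor that acts on many glycolytic genes, was 3.96-fold, Mlxip, a glucose-sensing factor, 1.77-fold and the kinase Akt1 1.56-fold higher. Hif1a and Epas1, which encode the oxygen-regulated subunits HIF-1 alpha and HIF-2 alpha, had log2 changes of 0.41 (limma adjusted p = 0.0354) and -0.55 (limma adjusted p = 0.0037). Prkaa2, a catalytic subunit of AMPK, was 1.42-fold lower, and Vdac1, the mitochondrial pore to which hexokinases dock, 1.32-fold lower. The other catalytic subunit gene of AMPK, Prkaa1, went the other way, at 1.35-fold higher (log2 change 0.43, limma adjusted p = 0.00967). Hif1a and Prkaa1 were named after their values were seen. In the branches to fructose and glycogen, 3 of 10 measured genes were higher and 5 lower, with a median of -0.38. The higher ones numbered 2 to 3 when single arrays were left out and 2 when the probe sets of each gene were averaged, and the lower ones numbered 3 without wild-type 2, without knockout 1 or without knockout 2. Khk, ketohexokinase, which phosphorylates fructose, was 2.36-fold lower, Pgm1 was 1.55-fold lower, and the liver phosphorylase Pygl had a log2 change of -0.63 (limma adjusted p = 0.0387). The phosphoglucomutase gene Pgm2 was 1.92-fold higher, Gfpt1, which leads into hexosamine synthesis, 1.48-fold higher and the brain phosphorylase Pygb 1.30-fold higher. Gfpt2, the paralogue of Gfpt1, was lower (log2 change -0.41, limma adjusted p = 0.00385) and was named after its value was seen.

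**Figure D4:**
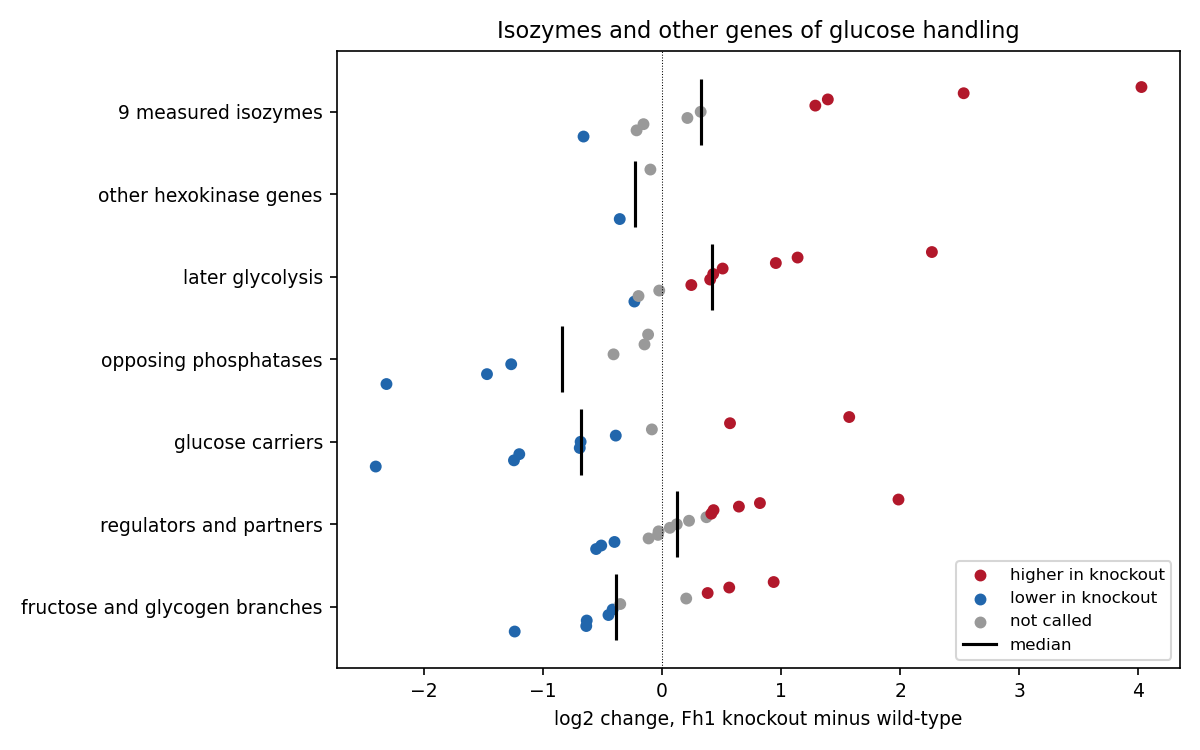
Log2 change (Fh1 knockout minus wild-type, horizontal axis) of the 9 measured isozymes and of 6 lists of other genes of glucose handling. Each point is 1 gene, coloured by its call (red higher, blue lower, grey not called), and the black line is the median of the row; the medians run from -0.84 for the opposing phosphatases to 0.42 for later glycolysis.

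As a check of the groups, Fh1 itself read 11.54, 11.60 and 11.61 in knockout samples, against 12.41, 12.34 and 12.22 in wild-type samples, 1.67-fold lower (limma adjusted p = 0.000396), and whether its probes lie in the deleted part is not known here. Marker lists of other cell types moved with the groups. Of 9 fibroblast and matrix markers 7 were higher, with summed levels of 13.22 to 14.08 in the knockout, against 11.78 to 12.07 in wild-type, and 5 of 6 proliferation markers were higher, at 9.67 to 9.74 against 8.31 to 8.49 in wild-type. Of 7 lymphocyte markers 4 were higher and 1 lower, and of 9 collecting duct markers 5 were lower. Over all genes 21.6% were higher and 27.7% lower. Of 7 endothelial markers 6 were lower, and of 4 erythrocyte markers 3 were lower, where 27.7% of all genes were lower. Among the lower erythrocyte markers were dim ones, the dimmest with means of 3.78 in the knockout and 4.21 in wild-type. Of 4 adipocyte markers none was called, and their summed level varied widely, at 9.17 to 12.18 in the knockout and 10.31 to 12.39 in wild-type. The part of these cells in the changes of Hk2, Pfkl, Pfkp and Pfkfb3 was not tested.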

How the data were processed

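RNA of 6 dissected kidney samples was hybridised to 1 Affymetrix array each. The deposited values are RMA values on the log2 scale, per the submitters' processing notes and the values themselves (2.90 to 14.82). Which software and chip definition were used is not given in the sources used here. In RMA the background is removed, arrays are equalised and probes are summarised, so dim genes have compressed folds and no detection call. Array medians were 6.19 to 6.24.

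Names of probe sets came from GEO's platform annotation, which can be old, updated by Entrez identifier to RefSeq symbols (GRCm38.p6). Exactly 1 gene was listed for 34945 of 45101 probe sets, and 64 were controls. The brightest probe set stood for each of 18193 genes. The fit used limma 3.58.1 under R 4.3.3 (functions lmFit and eBayes), two-sided, with Benjamini-Hochberg adjustment over all genes and a threshold of 0.05. The fit was tested on simulated data. Single probe sets were fitted over all 45037 non-control probe sets. Isozyme pairs were tested by exact permutation of the samples. Summed marker levels are log2 of the sum of unlogged values. No depth exists for arrays, and 3 samples per group limit the precision.

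The isozymes and the lists were chosen with earlier results of these data known. The text names every isozyme and, from each pathway list, per direction the 3 called genes that changed most, or all genes of a list with 6 or fewer. Genes of the marker lists were counted and not named, apart from Slc5a2, which is also a carrier and was named as one. Genes with no probe set of their own in the tables used were not analysed here. Other settings tried were averaging a gene's probe sets, keeping brighter genes alone, eBayes with trend and robust options, quantile or median-centred arrays, weighting arrays, blocking on the replicate number, omitting arrays in turn, fitting all probe sets and a threshold of 0.01. Python 3.11.15 and matplotlib 3.10.9 drew the plots.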

Additional observations from a re-analysis of the deposited data

How the results depend on the processing

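Over 15 alternatives the 9 isozymes gave 131 values, of which 122 kept direction and call, 9 gained a call, none lost one and none reversed. The isozymes lower numbered 2 with the mean of all probe sets and 2 with each array centred on the median of its tested genes, where Pfkfb2 joined Pfkm. The isozymes higher numbered 4 to 6, the most with array weights and without wild-type replicate 3, where Hk1 and Pfkfb4 gained calls. Hk1 was also called with the mean of its probe sets, among the brighter genes (which kept 5 of the 9 isozymes) and with a trended robust prior, with adjusted p over all alternatives of 0.0171 to 0.132. With the mean of all probe sets, 3 regulators were higher, against 5. Leaving out single arrays gave 0 to 1 lower genes in later glycolysis, 0 to 1 among the other hexokinase genes and 3 to 6 in the fructose and glycogen branches. Pair differences kept their sign in every alternative run.

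Samples with the same number did not deviate together (correlations across genes of -0.10, -0.13 and -0.13), and no sample correlated best with its own number. Each group was centred on its own mean, which by itself forces some of these correlations below 0. With 3 samples per group they cannot show whether the numbers pair samples, and the labels do not state it. With a replicate block 4 isozymes were higher and 1 lower, as without it, and over all genes 3510 were higher and 3930 lower, against 3928 and 5031. Blocked pair differences were 3.70 (Hk2 minus Hk1), 3.19 (Pfkp minus Pfkm) and 1.50 (Pfkfb3 minus Pfkfb2), with a sign-flip p of 0.25, the smallest 3 pairs can give. They equal the unblocked values by arithmetic, since each number occurs once in each group, so this equality tells nothing about pairing. Centring on the tested genes moved the median of all genes from -0.11 to -0.19.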
